A study of Mus musculus with 109 samples.

Results

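Sfrp1 and 7 further components of the Wnt pathway (Lrp6, Apc, Gsk3b, Axin2, Ctnnb1, Tcf7l2 and Lef1) were taken by gene symbol from single-cell RNA sequencing of postnatal day 7 mouse cerebellum. All 8 were among the 15973 genes of the count table. The cells were labelled as granule precursor cells of C57BL/6 mice, enriched on a Percoll density gradient and captured singly on C1 Fluidigm chips, and every cell gave a library of its own. No treatment or genotype separated them. The labels place 18 or 19 cells in each of 6 library groups but do not say what a library group is or from which animal a cell came, so p-values over library groups measure only the spread between these groups, which may be technical. Levels are given as CPM, in which the gene counts of a cell are scaled to a total of 1000000.

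Wnt proteins are secreted ligands that bind Frizzled receptors together with the co-receptors LRP5 and LRP6. Without them, a destruction complex built on APC and AXIN, with the kinases GSK3B and CK1, marks beta-catenin (Ctnnb1) for degradation. With them, beta-catenin accumulates and enters the nucleus, where it activates target genes such as Axin2 through the TCF and LEF factors. SFRP1 is a secreted protein that binds Wnts outside the cell. In the cerebellum the pathway is best known from medulloblastoma, in which activating mutations of beta-catenin define the WNT subgroup and SFRP1 is a marker of the SHH subgroup, the subgroup that arises from granule cell progenitors.

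Cells were divided by Mki67, a gene of cycling cells, into 32 Mki67-high cells with at least 100 CPM and 75 Mki67-low cells with under 10 CPM. The lowest value in the first class was 132 CPM and the highest in the second 9.27 CPM, and 2 cells lay between. A second division, by Dcx, a microtubule-associated protein of young migrating neurons, set the 36 cells with the highest Dcx (at least 2527 CPM) against the 36 with the lowest (at most 313 CPM). The divisions overlap, since 17 of the 36 Dcx-low cells and 3 of the 36 Dcx-high cells were Mki67-high. In library groups 1 to 6, Mki67-high cells numbered 4, 4, 8, 3, 8 and 5 and Mki67-low cells 15, 12, 10, 15, 10 and 13. Dcx-high cells numbered 4, 8, 6, 7, 5 and 6 and Dcx-low cells 9, 2, 4, 6, 9 and 6. Sums over a class in a library group therefore rest on unequal and often few cells. Total counts were 15071 to 8616017 per cell, with medians of 2.44e+06 to 4.29e+06 in the library groups. Markers of the granule lineage were present. Per library group, the summed CPM of 10 granule cell progenitor markers was 5308 to 10769 in Mki67-high and 851 to 3780 in Mki67-low cells, and that of 9 granule cell markers was 2922 to 5730 and 8889 to 13010.1. Mki67 and Dcx are among those markers. The summed CPM of 10 astroglial markers, by contrast, overlapped, at 200.4 to 2229 and 372 to 4156, and 6 cells, 4 of them Mki67-high, had at least 5 of these markers at 50 CPM or more. Microglial markers moved with the classes, their sum being 0 to 134 CPM (median 53.0) in Mki67-high and at most 0.634 CPM in Mki67-low cells, and 2 Mki67-high cells had at least 3 of them at 50 CPM or more. The endothelial and mural sum was at most 25.8 CPM in these classes. Oligodendrocyte lineage sums overlapped, at 60.7 to 2452 CPM in Mki67-high and 228 to 1377 CPM in Mki67-low cells. Markers of interneurons and Purkinje cells moved with the classes, their sum being 0.0749 to 30.7 CPM in Mki67-high and 36.2 to 803 CPM in Mki67-low cells (7 of 9 markers listed). The part of both in the results was not tested. Mki67-high cells held a median of 4968 detected genes against 4193 in Mki67-low cells.

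Gsk3b was the most evenly expressed of the 8 genes and Lef1 the rarest. Per kilobase of exon, the mean level over the 6 library groups was 215 ± 45 CPM for Gsk3b (SD, n = 6), 185 ± 137 for Sfrp1, 102 ± 59.3 for Ctnnb1 and 77.4 ± 42.4 for Apc. Tcf7l2 and Lrp6 followed at 7.62 ± 6.83 and 5.64 ± 7.02 CPM per kb, then Axin2 at 0.272 ± 0.404 and Lef1 at 0.0331 ± 0.0412. Apc lay above Tcf7l2 and Lrp6 above Axin2 in 6 of 6 library groups, whereas the order of Gsk3b and Sfrp1, of Ctnnb1 and Apc, and of Tcf7l2 and Lrp6 held in 4 of 6 and was not resolved beyond the spread. Sfrp1 exceeded Ctnnb1 and Axin2 exceeded Lef1 in 5 of 6.

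Sfrp1, Ctnnb1, Apc, Lrp6 and Tcf7l2 were expressed strongly in some cells and hardly in others, while Axin2 and Lef1 reached at most 40.3 and 16.3 CPM. The highest cells carried much of the signal, as 50% of all Sfrp1 CPM came from 6 cells, of Ctnnb1 from 8, of Apc from 12, of Gsk3b from 29, and of Lrp6, Tcf7l2 and Axin2 from 3 each. A threshold of 100 CPM, applied after the values had been seen, separated these cells for Sfrp1, Ctnnb1 and Apc, as few values lay between 10 and 100 CPM (12 cells for Sfrp1, 12 for Ctnnb1 and 17 for Apc). It did not separate Lrp6, with 15 cells between these values and 10 at 100 CPM or more. Tcf7l2 had 5 and 16 such cells and Axin2 5 and 0. Low counts below 100 CPM were widespread: 50 of the 55 cells with under 10 CPM of Sfrp1 still had a count, at most 49 reads. Mki67, which non-cycling cells should lack, had a count in 57 of the 75 Mki67-low cells, at most 36 reads, so a share of cells with a count is not read here as a share of expressing cells.

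**Figure D1:**
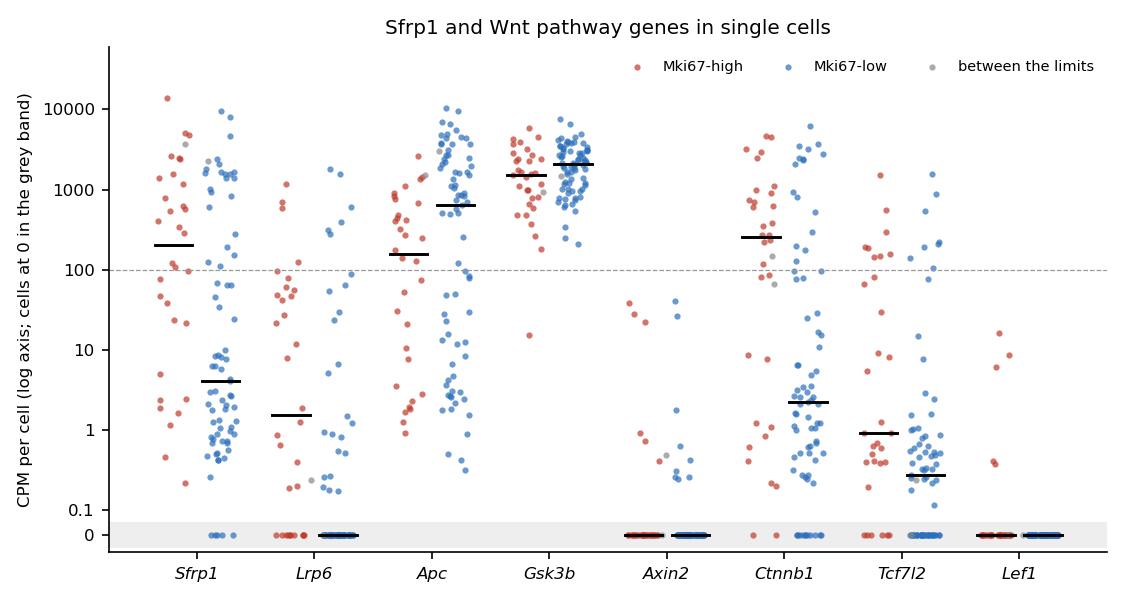
CPM of the 8 genes in each cell on a log axis, with cells at 0 in the grey band, black bars at class medians and a dashed line at 100 CPM. Gsk3b lay above 100 CPM in 108 cells, Sfrp1 and Ctnnb1 split into high and near-zero cells, and Lef1 was seen in 5 cells.

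Sfrp1 lies on chromosome 8 (GRCm38, chr8:23411502-23449632, plus strand) and no other annotated gene overlaps it. It reached 100 CPM in 42 cells, among them 18 of 32 Mki67-high cells (56.2%, Wilson 95% interval 39.3 to 71.8) and 22 of 75 Mki67-low cells (29.3%, 20.2 to 40.4). Wilson intervals, here and below, treat cells as independent although cells share library groups, so they do not compare the classes. The cell median of Sfrp1 was 205 CPM in Mki67-high and 4.13 CPM in Mki67-low cells, with highest cells of 13713 and 9458 CPM. When the counts of a class were summed within each library group, Sfrp1 measured 3175, 910.2, 555, 1539, 618 and 935 CPM in Mki67-high cells of library groups 1 to 6. In Mki67-low cells the same groups gave 1217, 551, 802, 136, 304 and 389 CPM. Mki67-high sums were therefore higher in 5 of 6 library groups, group 3 being the exception, and the classes overlapped. The mean was 1289 ± 987 against 566 ± 391 CPM (SD, n = 6). edgeR's quasi-likelihood test on the sums gave a log2 fold change of 1.3 ± 0.63 (SE) with a Benjamini-Hochberg adjusted p of 0.677.

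None of the 6 members tested passed an adjusted p of 0.01 between the Mki67 classes in edgeR, where 2 of 9084 genes did (0.022%). These were Tacc3 and Cdc20, mitotic genes, at log2 fold changes of 9.88 and 11.08. At an unadjusted p under 0.05 edgeR held 666 genes (7.33%), of which Apc was the only member. DESeq2 on the same sums called 376 of 10810 genes (3.48%), 267 of them higher in Mki67-high cells, and Lef1 was the only member among them. The spread behind these tests was wide, with a biological coefficient of variation (the spread between library groups as edgeR estimates it, relative to the mean) of 172%, and the median log2 fold change over all genes was -0.18, so the members' changes are to be read against that shift. A second measure gave each cell the same weight, the mean of log2(CPM + 1) per class and library group, compared by an exact two-sided sign-flip test whose smallest p with 6 groups is 0.03125. For Sfrp1 this mean was 7.38 ± 2.36 in Mki67-high and 4.23 ± 1.20 in Mki67-low cells, a difference of 3.16 ± 2.68 on the log2 scale (SD, n = 6; exact sign-flip p = 0.0625). Without the 6 cells with astroglial genes the difference was 3.0.

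Across Dcx the Sfrp1 levels ran the other way. Markers of other cell types also moved across Dcx. The oligodendrocyte lineage sum had a median over library groups of 125 CPM in Dcx-high (5.01 to 1862) and 895 CPM in Dcx-low cells (5.91 to 5213), and that of interneurons and Purkinje cells 283 (0.0475 to 1468) and 4.88 CPM (0 to 162). The astroglial sum was 181 to 1037 and 201 to 4919 CPM, and cells held a median of 4192.5 and 4887.5 detected genes. The part of these in the differences across Dcx was not tested. Sfrp1 reached 100 CPM in 8 of the 36 Dcx-high and 19 of the 36 Dcx-low cells, with cell medians of 2.24 and 129 CPM. Dcx-high sums were 2314, 649.7, 262, 8.99, 287 and 18.4 CPM in library groups 1 to 6, against 1790.2, 1067, 2643, 889.7, 582 and 889.5 CPM in Dcx-low cells. They were lower in 5 of 6 library groups, with group 1 the exception. The edgeR log2 fold change was -1.04 ± 0.95 with an adjusted p of 0.943. It was -0.36 without library group 3 and -2.34 without library group 1. The difference in log2(CPM + 1) was -2.70 ± 2.58 (exact sign-flip p = 0.0625, n = 6). Within the Mki67-low cells alone, the 37 cells with more Dcx held 8 cells at 100 CPM of Sfrp1 and the 37 with less held 14, a difference in log2(CPM + 1) of -1.21 ± 2.83 that was lower in 3 of 6 library groups (exact sign-flip p = 0.4375, n = 6).

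Both divisions together describe where Sfrp1 was high. In cells high in Mki67 and low in Dcx the median was 539 CPM, and 11 of 17 reached 100 CPM. In cells high in Mki67 with intermediate Dcx it was 205 CPM, with 7 of 12. All 3 cells high in both genes had at most 21.5 CPM. Among Mki67-low cells the median was 8.76 CPM at low, 2.97 CPM at intermediate and 2.35 CPM at high Dcx, and 8 of 19, 6 of 23 and 8 of 33 cells reached 100 CPM. Ccnd2, a granule cell progenitor marker, had a median of 2039 CPM in the 42 cells with at least 100 CPM of Sfrp1 and of 45.5 CPM in the 55 cells with under 10 CPM. It was not limited to cycling cells, as 37 of 75 Mki67-low cells also reached 100 CPM of it. In the same 2 sets of cells the Mki67 median was 3.14 and 0.627 CPM, and 18 and 8 cells were Mki67-high. Medians were 199 and 204 CPM for Pax6 and 20.3 and 17.8 CPM for Rbfox3.

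**Figure D2:**
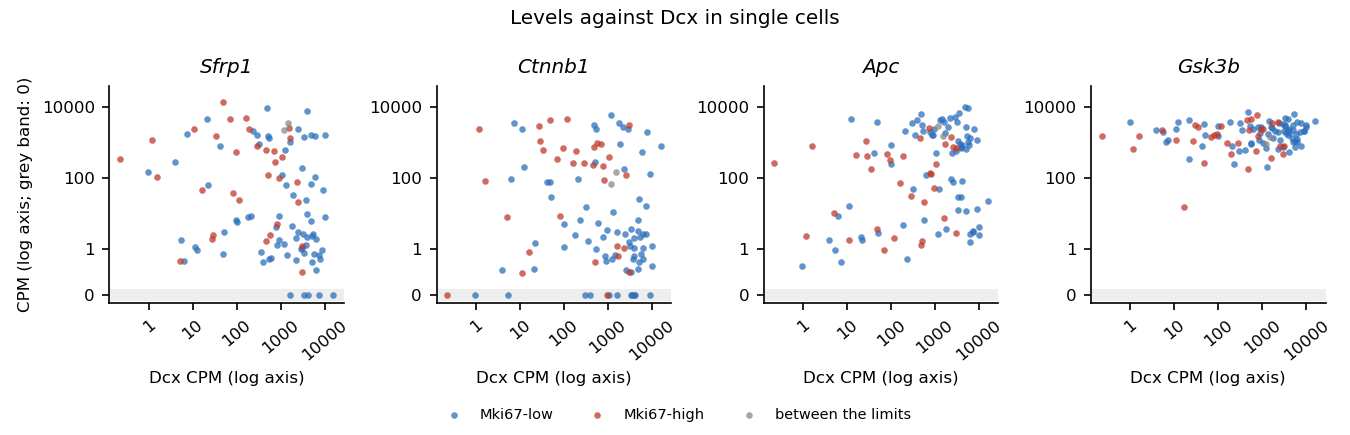
CPM of Sfrp1, Ctnnb1, Apc and Gsk3b against Dcx CPM in every cell, both on log axes, coloured by Mki67 class, with cells at 0 in the grey band. The 5 cells without a count of Sfrp1 had at least 1657 CPM of Dcx, while Gsk3b was at 100 CPM or more in all but 1 cell.

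Lrp6, the Wnt co-receptor (chr6:134446476-134566965, minus strand), was low and patchy. It had a count in 48 cells and reached 100 CPM in 10, of which 4 were Mki67-high and 6 Mki67-low, with a highest cell of 1801 CPM. Class sums were 15.7, 0, 98.9, 57.0, 152 and 39.3 CPM in Mki67-high against 38.3, 2.94, 285, 16.8, 12.5 and 52.6 CPM in Mki67-low cells of library groups 1 to 6. No direction was shared by the library groups, as 2 were higher and 4 lower. The edgeR log2 fold change was -0.42 ± 1.45 (adjusted p = 0.971), but the mean of log2(CPM + 1) differed by 1.55 in the other direction, higher in 4 of 6 groups (exact sign-flip p = 0.125, n = 6). Counts of any size were found in 22 of 32 Mki67-high and 25 of 75 Mki67-low cells. The number of detected genes moved with Lrp6, at a Spearman correlation of 0.32 over all cells.

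Among members of the destruction complex, Apc sums were lower in Mki67-high cells in 5 of 6 library groups, and Gsk3b sums differed by less than their spread. APC is the scaffold of the complex and also binds microtubules. The gene lies on chromosome 18 and a processed pseudogene, Gm10548, lies within or across its span on the other strand. Whether their exons overlap was not examined, and the strand setting of the counts is not given in the sources used here. Apc had a count in every cell and reached 100 CPM in 64. Its sums were 2.25, 402, 488, 167, 296 and 832 CPM in Mki67-high cells of library groups 1 to 6 and 998, 440.2, 365, 1884, 3815 and 1979.7 CPM in Mki67-low cells. They were lower in 5 of 6 library groups, with group 3 the exception, at means of 364 ± 286 against 1580.4 ± 1293 CPM (SD, n = 6). The edgeR log2 fold change was -2.43 ± 0.82 (p = 0.00867, adjusted p = 0.496 in edgeR), the smallest unadjusted p of the 6 members tested.

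The share of cells at 100 CPM was 18 of 32 (56.2%) for Apc in Mki67-high and 44 of 75 (58.7%) in Mki67-low cells. These shares are close, while the highest cell held 2664 CPM in the first class and 10348 CPM in the second, and the medians were 158 and 650.5 CPM. With each cell given the same weight, the log2(CPM + 1) difference was -1.41 ± 2.88, lower in 3 of 6 library groups (exact sign-flip p = 0.3125, n = 6). Across Dcx, the Apc sums were 822, 281, 477, 1821, 3821 and 2363 CPM in Dcx-high cells and 156, 447, 4.66, 697, 1216 and 795 CPM in Dcx-low cells, higher in 5 of 6 library groups. The edgeR log2 fold change was 1.78 ± 0.84 (adjusted p = 0.838). In log2(CPM + 1), Apc was higher in Dcx-high cells in 6 of 6 library groups, by 2.62 ± 2.31 (exact sign-flip p = 0.03125, n = 6, the smallest possible). With log2(CPM + 10) it was higher in 5 of 6 groups, by 1.96 ± 1.80 (exact sign-flip p = 0.0625), and the share of cells at 100 CPM was higher in 3 and lower in 2 (exact sign-flip p = 0.375). Within the Mki67-low cells the log2(CPM + 1) difference was 0.92 ± 2.22, higher in 4 of 6 (exact sign-flip p = 0.3125), with 22 cells at 100 CPM on either side, and the edgeR log2 fold change was 0.46 ± 0.64. The smallest p was reached in the higher direction by 2.22% of the genes tested across Dcx, and its adjusted p over all genes was 0.483.

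Gsk3b, the kinase that phosphorylates beta-catenin in the complex (chr16:38089001-38246084, plus strand), reached 100 CPM in 108 cells. The 1 exception was a Mki67-high cell at 15.5 CPM. Its sums were 897, 778, 3034, 1901, 1700.4 and 2133 CPM in Mki67-high and 2358, 1695, 2029, 2650.5, 2218 and 1914 CPM in Mki67-low cells of library groups 1 to 6. These values overlapped and were lower in 4 of 6 groups, with an edgeR log2 fold change of -0.47 ± 0.32 (adjusted p = 0.772). By Dcx it was higher in Dcx-high cells in log2(CPM + 1) in 6 of 6 library groups, by 0.49 ± 0.27 (exact sign-flip p = 0.03125, n = 6; adjusted p over all genes = 0.483). In the sums it was 2159 ± 548 against 1646 ± 364 CPM, higher in 5 of 6, and the edgeR log2 fold change of 0.55 ± 0.35 had an adjusted p of 0.873. Within the Mki67-low cells the log2(CPM + 1) difference was 0.37 ± 0.49, higher in 4 of 6 library groups (exact sign-flip p = 0.15625). The smallest p across Dcx was reached in the higher direction by 2.22% of the genes tested.

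Axin2 is both a scaffold of the destruction complex and a target of the pathway, and it is often read as a reporter of beta-catenin activity. It lies on chromosome 11 (chr11:108920349-108950783, plus strand), overlapped by the antisense gene Gm11670. Counts were found in 16 cells (14.7%, Wilson 95% interval 9.24 to 22.5), and 5 cells reached 20 CPM, with 26.6, 28.3, 39.1, 40.3 and 22.5 CPM. Of these 5, 3 were Mki67-high and 2 Mki67-low, and 3 came from library group 6. The remaining 11 cells had 1 to 8 reads. Axin2 did not pass edgeR's filter on low counts, and DESeq2 on the sums gave a log2 fold change of 1.76 ± 1.79 between the Mki67 classes (adjusted p = 0.688).

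Ctnnb1, which encodes beta-catenin (chr9:120929216-120960507, plus strand, overlapped on the other strand by Ulk4), resembled Sfrp1 in its distribution. It reached 100 CPM in 19 of 32 Mki67-high cells (59.4%, Wilson 95% interval 42.3 to 74.5) and 16 of 75 Mki67-low cells (21.3%, 13.6 to 31.9). The cell median was 255 CPM in the first and 2.22 CPM in the second. Sums were 2860.4, 1391, 125, 443, 215 and 530.3 CPM in Mki67-high cells of library groups 1 to 6 against 464, 232, 338, 589, 63.7 and 474 CPM in Mki67-low cells. Here 4 of 6 library groups were higher, and library group 1 held the largest gap. The edgeR log2 fold change was 1.54 ± 0.78 (adjusted p = 0.692), and 0.57 ± 0.75 without library group 1 (adjusted p = 0.928). With equal weight per cell, however, 6 of 6 library groups were higher, by 3.67 ± 2.33 in log2(CPM + 1) (exact sign-flip p = 0.03125, n = 6, the smallest possible), and the share of cells at 100 CPM was higher by 42.7 ± 23.5 percentage points, also in 6 of 6. The smallest p was reached in that direction by 7.88% of all genes in the first measure and 2.33% in the second, and the adjusted p over all genes was 0.345 and 0.854. Without the cells with astroglial genes the first difference was 3.46 and still higher in every library group. The number of detected genes, which was larger in Mki67-high cells, moved with Ctnnb1 at a Spearman correlation of 0.31 over all cells. Its part in the difference was not tested.

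The Ctnnb1 levels also ran against Dcx. In Dcx-high cells the sums were 1.81, 351, 43.6, 857, 0.427 and 84.8 CPM and in Dcx-low cells 1262, 3308, 96.3, 283, 103 and 659 CPM in library groups 1 to 6. Dcx-high sums were lower in 5 of 6 groups, with group 4 the exception (edgeR log2 fold change -1.83 ± 1.28, adjusted p = 0.906). The fold change was -0.93 without library group 2 and -3.34 without library group 4. The log2(CPM + 1) difference was -3.59 ± 3.19 (exact sign-flip p = 0.0625, n = 6). Within the Mki67-low cells it was -0.80 ± 1.65, lower in 4 of 6 (exact sign-flip p = 0.34375).

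**Figure D3:**
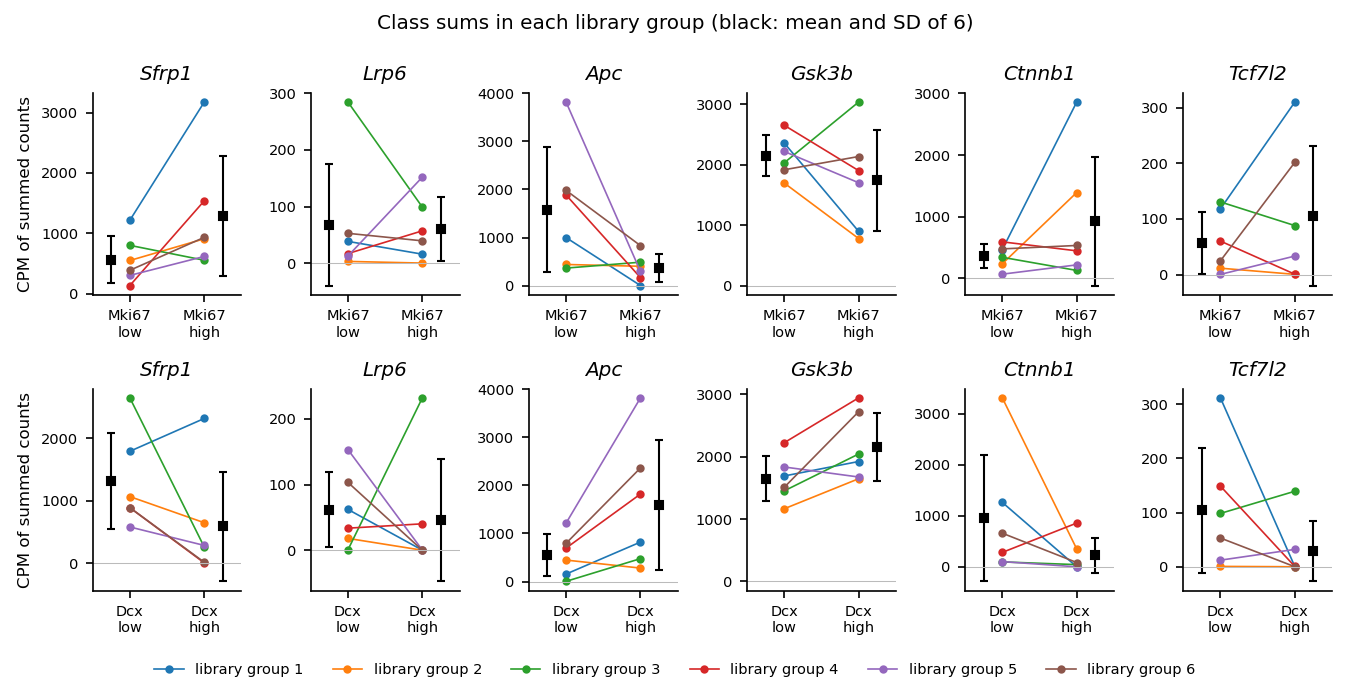
CPM of summed counts of 6 genes in Mki67-low and Mki67-high cells (top) and in Dcx-low and Dcx-high cells (bottom), each line a library group, with black squares and bars for the mean and SD of 6. Sfrp1 lines go up with Mki67 and down with Dcx in 5 of 6 library groups each and Apc lines the reverse, and none of the 6 genes passed the edgeR test.

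TCF7L2 and LEF1 are the DNA-binding partners of beta-catenin. Tcf7l2 lies on chromosome 19 (chr19:55741820-55933654, plus strand) and Lef1 on chromosome 3 (chr3:131110471-131224356, plus strand, overlapped by the antisense gene Gm43352). TCF and LEF factors bind CTTTG followed by AA, AT, TA or TT, and these 4 motifs were searched on both strands in 300 bases around annotated start sites (250 before, 50 after; RefSeq, GRCm38.p6). At least 1 was held by 16.9% of 32851 such windows and by 2 of the 10 windows analysed for 5 members (Lef1, Tcf7l2, Ctnnb1, Axin2 and Gsk3b). Windows of Sfrp1, Lrp6 and Apc were not analysed here. Of the 10 windows, 4 were of Lef1 and 2 of Tcf7l2, and 1 window of each held a match. The windows of Ctnnb1 (2), Axin2 (1) and Gsk3b (1) held none. The 2 matches are shown in capitals, Lef1 with CTTTGTA on the opposite strand and Tcf7l2 with CTTTGTT on the strand shown.
Lef1, chr3:131156121-131156180, plus strand: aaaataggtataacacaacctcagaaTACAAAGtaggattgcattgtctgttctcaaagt
Tcf7l2, chr19:55895261-55895320, plus strand: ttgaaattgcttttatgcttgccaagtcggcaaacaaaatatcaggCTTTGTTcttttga
Both windows belong to internal starts of their genes, and a match is a description of letters only.

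Tcf7l2 had a count in 72 cells and reached 100 CPM in 16, of which 8 were Mki67-high (25%, Wilson 95% interval 13.3 to 42.1) and 8 Mki67-low (10.7%, 5.50 to 19.7). Sums were 309.8, 0.32, 87.9, 0.592, 33.2 and 201 CPM in Mki67-high against 118, 11.4, 130.4, 60.1, 0.226 and 24.6 CPM in Mki67-low cells of library groups 1 to 6, higher in 3 and lower in 3. The edgeR log2 fold change was 0.86 ± 1.49 (adjusted p = 0.925). Of the 16 cells, 4 were among the 6 cells with astroglial genes, whose median was 164 CPM against 0.388 CPM in the other cells, and without those 6 cells the fold change was 1.07 ± 1.56 (adjusted p = 0.934). By Dcx the sums were 28.8 ± 55.6 CPM in Dcx-high and 104 ± 116 CPM in Dcx-low cells, with an edgeR log2 fold change of -1.70 ± 1.83 (adjusted p = 0.966). It was -0.79 without library group 1 and -3.72 without library group 3. The number of detected genes moved with Tcf7l2, at a Spearman correlation of 0.42 over all cells.

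Lef1 was found in 5 cells, all of them Mki67-high, with 22, 1, 42, 57 and 3 reads (8.68, 0.418, 6.08, 16.3 and 0.38 CPM). None of the 75 Mki67-low cells had a read, and a true share of up to 4% of cells with a count would still be possible there (counting error only). Summed over all cells of a class, 125 reads among Mki67-high cells made 0.967 CPM, 86.0-fold the level that 3 reads over all Mki67-low cells would give. That level treats reads as independent, whereas the Lef1 reads came from few cells, so the ratio is not a lower bound on the difference. Of the 5 cells, 3 had 7 or 8 of the 10 astroglial markers at 50 CPM or more, and these 3 cells held 102 of the 125 reads. Outside them, 2 Mki67-high cells had 22 and 1 reads and up to 2 astroglial markers at that level. Of the cells with astroglial markers, those with 42 and 3 reads held 13533 and 12684 detected genes. edgeR's filter left Lef1 out, and DESeq2 on the sums gave an adjusted p of 0.00865. Per library group, the share of cells with a count was higher in Mki67-high cells by 13.8 ± 11.6 percentage points (exact sign-flip p = 0.125, n = 6). It was higher by 8.63 points without cells of unusual depth (exact sign-flip p = 0.25) and by 6.94 without cells with astroglial genes (exact sign-flip p = 0.5).

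The members that were high were not always high in the same cells. Of the 42 cells with at least 100 CPM of Sfrp1, 18 also reached it for Ctnnb1, which is 42.9% of the Sfrp1 cells and 50% of the 36 Ctnnb1 cells. Among Mki67-high cells 12 of the 18 Sfrp1 cells did, and among Mki67-low cells 5 of 22. Sfrp1 and Apc were both at 100 CPM in 22 cells, and their Spearman correlation over all cells was -0.19, with -0.25 to 0.01 inside library groups. Ctnnb1 and Sfrp1 had 0.10, with -0.20 to 0.36 inside library groups. A cell held 2 members at 100 CPM most often (46 cells), and all 4 cells with 5 members at that level were Mki67-high. Among these 4, a cell of library group 3 and a cell of library group 6 held 13533 and 12684 detected genes. The same cells had 8 and 7 of the 10 astroglial markers at 50 CPM or more. The part of these cells in the shared levels was not tested.

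Likeness was ranked by the Spearman correlation of log2(CPM + 1) over all cells among genes with a count in at least 25% of cells, a description in which cells share libraries and depth. The genes most like Sfrp1 were Smim11 (0.51), RP23-43F3.4 (0.48), Plxnb2 (0.46), Islr2 (0.46) and Anp32b (0.44). Plxnb2 encodes plexin-B2, a semaphorin receptor of granule cell progenitors. The genes most unlike it were Tuba1a (-0.44), Rtn1 (-0.40), Dpysl5 (-0.39), Malat1 (-0.38) and Gm10558 (-0.36), of which Tuba1a encodes a tubulin of differentiating neurons. Ccnd2 ranked 21 of 6957 at 0.41, Mki67 stood at 0.30 and Dcx at -0.28. Sfrp1 correlated at 0.26 with the number of detected genes and at 0.01 with total counts.

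For the other members the leading genes were likewise weakly correlated. Ctnnb1 was most like Alyref (0.44), Pja2 (0.42) and Mxd3 (0.41), and Mki67 stood at 0.28. Apc was most like Neurod1 (0.42), the transcription factor of granule cell differentiation, Gap43 (0.40), a growth cone protein, and Lin7c (0.39), with Rbfox3, which encodes the neuronal marker NeuN, ranked 5 at 0.38. Gsk3b was most like Apc2 (0.40), the neuronal relative of Apc, Kxd1 (0.37) and Myg1 (0.37). Lrp6 was most like Fam64a (0.51), Me2 (0.47) and Ndc80 (0.46), a kinetochore gene, and Mki67 ranked 8 for it at 0.42. Tcf7l2 was most like Ppp1r16b (0.48), Mrps36 (0.45) and Deb1 (0.44). Each of these genes had a count in at least 31 cells. Pax6, which marks the granule lineage, correlated with the 6 genes between -0.06 and 0.21. Atoh1 and Gli1, genes of granule cell progenitors, had a count in 18 and 19 cells and were not ranked.

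The 8 genes were set among 74 Wnt genes of the table, grouped by role. Ligands were scarce: of 19 genes for ligands and their secretion 6 were listed, led by Porcn and Wls, which modify and export Wnts, at 32.6 and 9.09 CPM per kb, while Wnt3, Wnt4, Wnt5a and Wnt7b had a count in 5 to 13 cells. Of 19 receptors 16 were listed, led by Lgr4, a receptor of R-spondins (21.3 CPM per kb), and Ryk (19.05 CPM per kb). Among modulators 8 of 18 were listed, and Sfrp1, at 185 CPM per kb, was followed by Znrf3, a ligase that removes Frizzled, at 22.2. All 19 destruction complex genes and all 17 nuclear effectors were listed, led by Gsk3b and Apc, and by Ctnnb1 and Cby1, an inhibitor of beta-catenin (16.1 CPM per kb). Of 18 direct targets 14 were listed, led by Fgf9 (41.5 CPM per kb) and Znrf3.

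**Figure D4:**
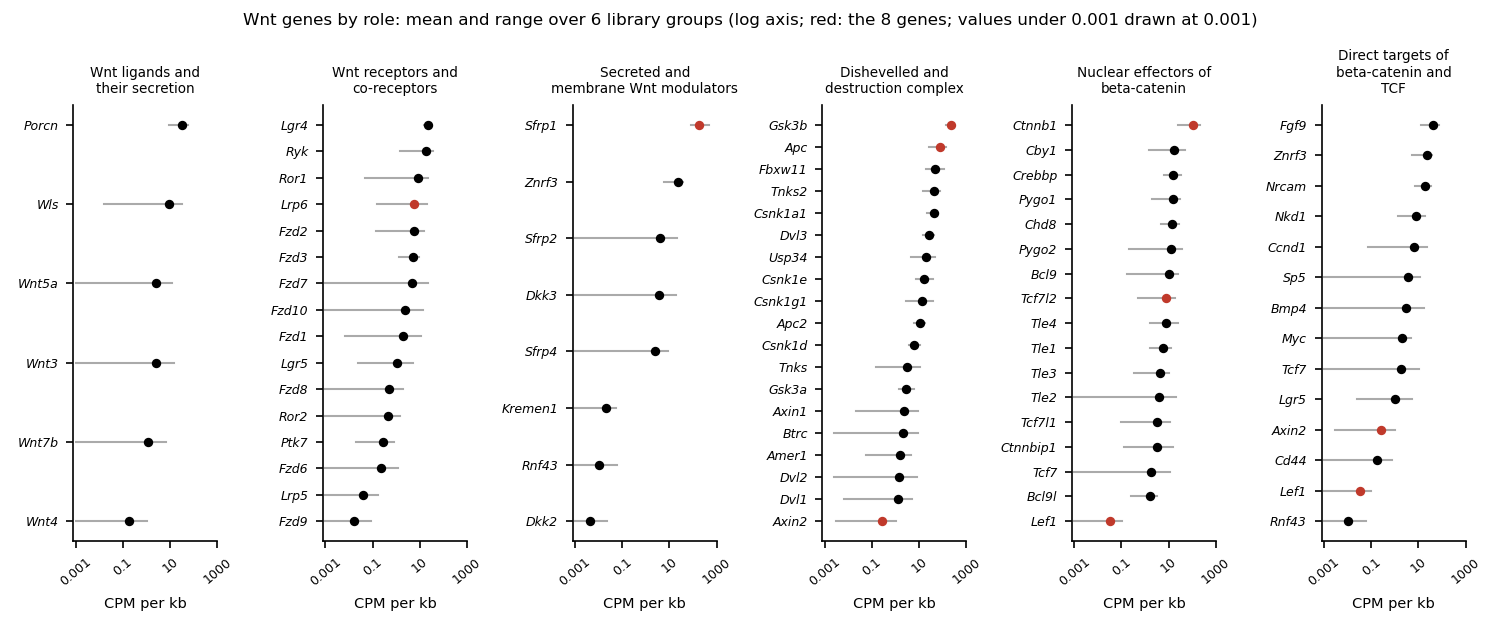
Mean CPM per kilobase of exon of Wnt genes by role, on log axes, with grey lines for the range over 6 library groups and the 8 genes in red. Gsk3b, Sfrp1, Ctnnb1 and Apc lead their groups, and Axin2 and Lef1 lie at the low end of theirs.

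No gene of the role lists was called by edgeR in either direction, whether across Mki67 or across Dcx. Some genes stand in more than 1 list. Tested genes numbered 3, 9, 2, 18, 14 and 8 across Mki67, in the order ligands, receptors, modulators, destruction complex, nuclear effectors and targets. Their median log2 fold changes were -1.98, 0.06, 1.37, -0.32, -1.12 and 0.59, beside -0.18 over all genes. Across Dcx the numbers tested were 2, 7, 2, 14, 12 and 6 and the medians -1.93, -0.46, -1.23, 0.64, 0.91 and -0.94, beside 0.14 over all genes, and edgeR called 0 of 7061 genes there (0%), with 416 at an unadjusted p under 0.05 (5.89%). DESeq2 called 537 of 8562 genes across Dcx (6.27%), 182 higher and 355 lower, none of them in the Wnt lists. Znrf3 followed the direction of Sfrp1, with sums of 286 ± 145 CPM in Mki67-high and 103 ± 69.7 CPM in Mki67-low cells, higher in 5 of 6 library groups (edgeR log2 fold change 1.44 ± 0.77, adjusted p = 0.713), and lower in Dcx-high cells in 6 of 6 (adjusted p = 0.955). Sums lower in 6 of 6 library groups were found for 2.9% of all genes across Dcx.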

How the data were processed

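Single cells of postnatal day 7 mouse cerebella were sequenced by the authors, who aligned reads to mm10 with STAR 2.4.1d and deposited the raw count of reads per gene and cell from HTSeq 0.6.1, without normalization; the annotation and strand setting are not given in the sources used here. The libraries carry no molecular identifiers. Wilson intervals are for counting error alone, leave out the sharing of library groups by cells, and are not tests between classes. No cell was removed (109 in all), and each listed gene had a count in at least 3 of them.

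CPM was taken over the column total. Counts were summed per class and library group and compared with edgeR 4.0.16 (filterByExpr, TMM, quasi-likelihood test) in R 4.3.3, with Benjamini-Hochberg adjustment over all genes tested and the study's threshold of 0.01. The main edgeR fit held the class alone, so the classes of a library group were not paired in it. A fit with the library group as a block was an alternative. DESeq2 1.42.0 on the same sums, other class limits, filters and scalings, and leaving out library groups were alternatives. Means of log2(CPM + 1) per library group were compared by exact two-sided sign-flip tests. Exon lengths and positions came from GENCODE M21, and promoter windows from RefSeq GRCm38.p6.

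The genes named beside the 8 are cell class markers, the 2 highest per kilobase of each Wnt list with any of its genes called, and the 5 highest and 5 lowest by Spearman correlation for Sfrp1 (3 highest for others with a count in at least 20 cells); Tacc3, Cdc20, Wnt3, Wnt4, Wnt5a and Wnt7b were named after their values were seen. The members and lists were chosen with earlier results of these data known. Tested on simulated data with the spread as estimated, edgeR called 7% (Mki67 classes, 8676 genes) and 8% (Dcx classes, 6739 genes) of genes changed by 5 on the log2 scale and 0% of those changed by 2.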

Additional observations from a re-analysis of the deposited data

Results flagged for a closer look

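In groups of 6 library groups, a class sum was marked where its gap to the next value exceeded 0.625 of the range. This held for 7 of 32 checks. The limit assumes independent, normally distributed values. These sums were skewed, came from few cells, and drew on the same cells in both divisions. The 7 are therefore not set against a chance rate. Sfrp1 in Dcx-high cells measured 2314 CPM in library group 1 against 8.99 to 649.7 CPM in the others. Lrp6 measured 285 CPM in Mki67-low cells of library group 3 (others 2.94 to 52.6 CPM) and 232 CPM in Dcx-high cells of the same group (others 0 to 40.2 CPM). Axin2 measured 14.3 CPM in Mki67-high cells of library group 6 (others 0 to 3.80 CPM) and 6.65 CPM in its Dcx-low cells (others all 0). Ctnnb1 in Dcx-low cells measured 3308 CPM in library group 2 (others 96.3 to 1262 CPM). Tcf7l2 in Dcx-high cells measured 139 CPM in library group 3 (others 0.127 to 32.1 CPM). The highest cell behind the marked sum had 8046 CPM for Sfrp1, 3528 CPM for Ctnnb1 (a sum of 2 cells) and 540 CPM for Tcf7l2. For Lrp6 the highest cell of both marked sums was the same, at 1801 CPM, as it was for Axin2, at 39.1 CPM. The part of the library group in these values was not tested.

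The 2 cells between the Mki67 limits, both of library group 2, were left out of the comparison of Mki67-high with Mki67-low cells. They held at least 2256 CPM of Sfrp1 (up to 3708), 1534 CPM of Apc (up to 3052) and 929 CPM of Gsk3b (up to 1461). The shallowest cell of the series, with 15071 counts, is one of them.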

How the results depend on the processing

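Between the Mki67 classes edgeR called 2 genes, 6 with DESeq2 size factors, 6 at a threshold of 0.05, 1 without 3 cells of unusual depth, 1 without cells with astroglial genes, 0 for at least 50 CPM against no Mki67 count (888 at an unadjusted p under 0.05), 0 to 1 with a library group left out (1 without group 1 or 3, 0 without group 2, 4, 5 or 6), and DESeq2 on the sums called 376. With the library group as a replicate block, which pairs the classes, edgeR called 0 genes (602 at an unadjusted p under 0.05) and across Dcx 0 (402). Deviations of the 2 classes of a library group correlated by 0.0182 to 0.0558, with 4 (Mki67) and 5 (Dcx) of 6 groups best with their own. Across Dcx DESeq2 on the sums called 537 and every edgeR alternative 0. No member was called by edgeR in any of these. The causes were not tested. The sign-flip test cannot reach 0.01 and gives no count. The median log2 fold change over all genes was -0.18, 0.09 with DESeq2 size factors and -0.47 under the block, without a member changing sign between TMM and DESeq2 size factors. The block reversed Tcf7l2 (-0.0037), and the limits of 50 CPM against no count reversed Ctnnb1 (-0.16). Lrp6 was 1.21 under those limits, 0.25 for at least 300 CPM, and 1.55 and 0.68 as means of log2(CPM + 1) and log2(CPM + 10). Leaving out 1 library group gave -1.16 to 1.21 for it (1.21 without group 3) and -2.80 to 0.60 across Dcx, above 0 without groups 1, 5 or 6. Sfrp1, Apc and Gsk3b kept their direction in each of 18 alternatives in both comparisons, but not their size. Across Dcx Sfrp1 ran from -2.70 to -0.36 and Apc from 0.46 to 2.62, and across Mki67 from 0.94 to 3.16 and -2.67 to -1.30. These ranges mix measures. The limits -2.70, 2.62 and 3.16 are differences in mean log2(CPM + 1), and -1.30 is one in log2(CPM + 10). The other limits are edgeR log2 fold changes. Not all 18 alternatives could change a value. The threshold of 0.05 and a minimum of 2 cells per sum left every fold change as it was. So did leaving out cells of unusual depth across Dcx. The fits without a library group share most of their data, so the 18 are not independent. Under the block, values across Dcx were -2.57 for Sfrp1 (unadjusted edgeR p = 0.0255), -3.43 for Ctnnb1 (0.0294), 2.14 for Apc (0.0144) and -4.52 for Tcf7l2 (0.181), none called. Without the block these unadjusted edgeR p-values were 0.287, 0.172, 0.0489 and 0.366. Across Mki67 they rose under the block, from 0.0538 to 0.0862 for Sfrp1, from 0.0639 to 0.305 for Ctnnb1 and from 0.00867 to 0.0160 for Apc. Cells with at least 5 counts were 72.5% for Sfrp1, 28.4% for Lrp6, 91.7% for Apc, 6.42% for Axin2, 62.4% for Ctnnb1 and 27.5% for Tcf7l2. Thinned to 1110182 counts, cells with a count were 88.9% for Sfrp1, 77.8% for Ctnnb1 and 48.1% for Tcf7l2. At 100 CPM, chosen after seeing the data, shares were 38.5%, 9.17%, 58.7%, 0%, 33.0%, 14.7% and 0% for Sfrp1, Lrp6, Apc, Axin2, Ctnnb1, Tcf7l2 and Lef1. The median over cells was 2.28 CPM per kb for Sfrp1, 26.1 for Apc, 0.684 for Ctnnb1 and 0.0461 for Tcf7l2. By the longest transcript Tcf7l2 was 18.01 and Lef1 0.0796 CPM per kb.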
